A study of Zea mays with 36 samples.

Results

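The cellulose synthase (cesa) genes of maize were followed in the shoot apical meristem, the stem cell tissue at the seedling tip, of rgd2-R mutants and non-mutants. Members were all probes whose annotated gene symbol or synonym is cesa followed by a number, with or without a hyphen. This gave 9 genes, cesa1 to cesa9, out of 766 named genes, and 29 probes, of which 19 lie on the SAM1 array and 10 on the SAM3 array. Of the 9 genes, 6 carry the name without a hyphen, and cesa1, cesa4 and cesa9 were found only through the hyphenated synonym. Each array design measured 7 of the genes. cesa1, cesa5, cesa6, cesa8 and cesa9 have probes on both, cesa2 and cesa3 only on SAM1, and cesa4 and cesa7 only on SAM3. The RefSeq gene table lists 13 maize cesa genes, and the 4 with no probe named here, cesa10 to cesa13, were not analysed here.

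CesA proteins are the catalytic subunits of the cellulose synthase complexes in the plasma membrane. The complexes polymerise glucose from UDP-glucose into cellulose microfibrils, and they move along cortical microtubules while doing so. Dividing and expanding cells such as those of the meristem build primary walls, and in Arabidopsis different CESA proteins serve primary and secondary walls. In maize, cesa10, cesa11 and cesa12 are the genes associated with secondary walls.

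Both genotypes were grown under the same controlled conditions and harvested 14 days after germination. The rgd2-R mutation, in the ARGONAUTE7-like gene ragged seedling2, had been introgressed into the inbred Mo17 over 5 generations. Meristem cells were isolated by laser microdissection, their RNA was amplified in 2 rounds, and rgd2-R and non-mutant RNA were hybridised together on 2-colour arrays. Each array design holds 6 biological replicates, and each was read 3 times (low, mid and high), which gives 36 samples. The dye Cy3 labelled the mutant RNA in replicates 1 to 3, and Cy5 labelled it in replicates 4 to 6. How many meristems went into a replicate, and whether equally numbered replicates of SAM1 and SAM3 share RNA, is not given in the labels. Ratios set rgd2-R over non-mutant on the log2 scale, so a value above 0 means a higher level in rgd2-R. In tissue samples, fewer cells of a type and less RNA per cell cannot be told apart.

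Spots of the meristem gene kn1 were 7.12 times local background on SAM1 and 12.1 times on SAM3 (median over readings and dyes), and their ratios were -0.12 and -0.06. The other meristem marker on SAM1, knox7, lay at 3.10 times with a ratio of 0.05. On SAM3, knox3, knox7 and knox8 lay at 2.55, 4.09 and 1.48 times, with ratios of 0.02, -0.06 and 0.01. Means were above 0 for 1 of 2 meristem markers on SAM1 and 2 of 4 on SAM3. Of the photosynthetic leaf markers, 0 of 3 genes on SAM1 and 1 of 2 on SAM3 exceeded 2 times background, the latter being rbcs1 at 2.36 times. Of 4 vascular, secondary wall and lignin markers on SAM1, the lignin genes BM1 and PAL1 lay at 1.12 and 1.52 times background and the sucrose synthases sh1 and sus1 at 9.01 and 19.5 times. Both sucrose synthases are also in the cell wall list. No gene of the meristem, vascular, epidermis or leaf marker lists passed the threshold. The epidermis marker ocl4 on SAM1 was at 0.21 with a standard error of 0.06 and an adjusted p of 0.186 in limma. It was above 0 in 6 of 6 replicates, as were 3.04% of genes and unnamed spots on SAM1. The other epidermis markers there lay near 0, with gl8 at -0.03, ocl1 at 0.02 and ocl2 at 0.03. On SAM3, 3 of 3 epidermis markers had means above 0 as labelled, and 1 of 3 with the low and mid readings of replicate 3 turned. Whether these markers have a part in the cesa values was not tested. Ratios of the 3 readings of a replicate correlated positively in 18 of 18 pairs on SAM1 and in 16 of 18 on SAM3, over the brighter probes of each array. On SAM1 the readings of replicate 5 correlated at only 0.375 to 0.431, and those of the other replicates at 0.784 to 0.901. The pairs below 0 belong to SAM3 replicate 3. Its low and mid readings correlated with each other at 0.926 and with its high reading at -0.940 and -0.953. Those same low and mid readings were the only 2 of 36 in which the median local background was higher in Cy5 than in Cy3. The direction of this replicate is therefore not settled. SAM3 values are given with it as labelled unless stated otherwise, and gene means also without it or with its readings turned. As labelled, its value averages opposed readings, which can cancel. For cesa5 that value was -0.16, beside 0.38 with low and mid turned and -0.38 with high turned. All SAM3 means, standard errors, p-values, sign counts and pair differences given as labelled include such a value. Different replicates of SAM3 correlated at -0.599 to 0.376, below 0 in 7 of 15 pairs, and those of SAM1 at -0.224 to 0.438, below 0 in 3 of 15.

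The first question was whether any cesa gene differed in level between rgd2-R and non-mutant meristems. None did at an adjusted p under 0.05 in limma's moderated test, over 7 genes on each array design, and neither did any of the 29 probes. The background was equally empty, with 0% of SAM1 probes and 0% of SAM3 probes called. The smallest adjusted p over all probes was 0.0921 on SAM1 and 0.474 on SAM3. At an unadjusted p under 0.05, 1 of 7 genes on SAM1 (cesa2) was higher, beside 6.57% of all genes and unnamed spots, and 0 of 7 were lower, beside 7.53%. On SAM3, 1 of 7 (cesa5) was lower, beside 3.58%, and 0 of 7 were higher, beside 2.94%. On SAM1, 6 of the 7 genes had a mean below 0, beside 48.6% of everything on that array, and on SAM3 this held for 4 of 7, beside 51.5%, and for 5 of 7 without replicate 3. Of those 6 on SAM1, cesa1 and cesa9 moved to -0.0031 and -0.0015 without replicate 6. The cesa8 mean on SAM1 moved to 0.01 without replicate 3, in which 1 reading of 1 cesa8 probe was -4.35. The median over the cesa genes was -0.08 on SAM1 and -0.04 on SAM3, where the medians over everything tested were 0.00 and -0.00. Between the percentiles 10 and 90, SAM1 values ran from -0.17 to 0.16 and SAM3 values from -0.14 to 0.12.

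A ratio of one sign in all 6 replicates was found on SAM1 for 0 of 7 cesa genes in either direction, beside 3.04% of genes and unnamed spots higher and 3.55% lower. On SAM3 it was found for 0 of 7 higher, beside 1.54%, and for 1 of 7 lower (cesa5), beside 1.62%. With the low and mid readings of replicate 3 turned, the count of genes lower in all replicates was 0 of 7, beside 2.51%, since cesa5 in that replicate became 0.38. Without replicate 3 it was 1 of 7, beside 4.17%, and with the high reading turned 1 of 7, beside 1.66%.

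**Figure D1:**
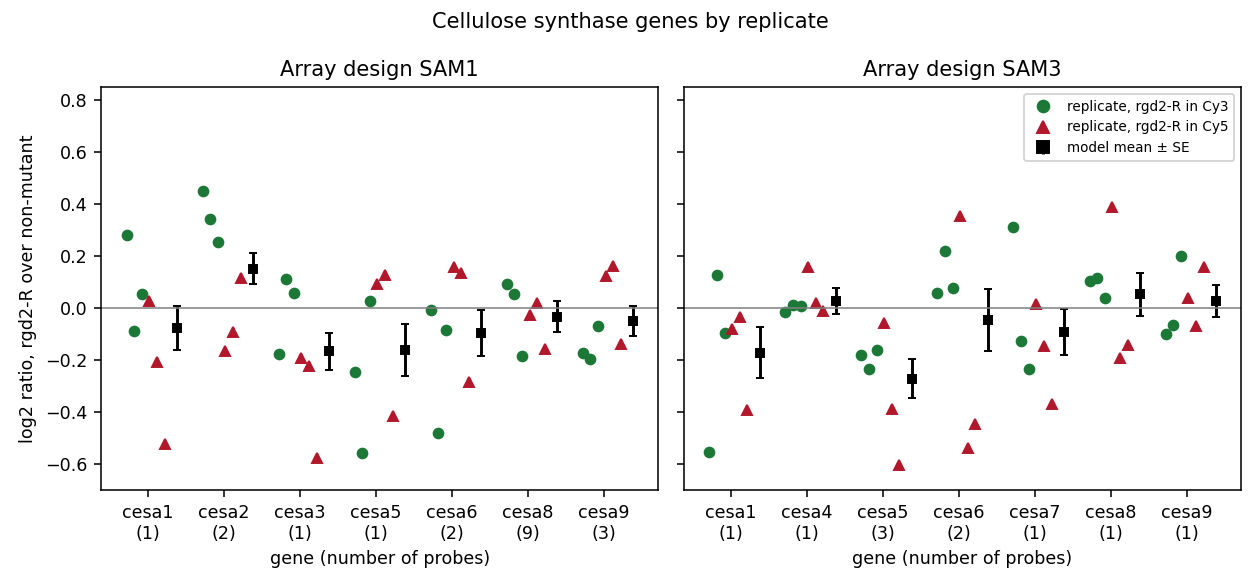
Log2 ratio of rgd2-R over non-mutant (y axis) for each cesa gene on SAM1 (left) and SAM3 (right). Points are the 6 replicates, coloured by the dye that carried rgd2-R, and squares with bars are the limma mean and its standard error. With replicate 3 as labelled, the 6 points of cesa5 on SAM3 all lie below 0, while every other gene has points on both sides of 0.

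cesa2 (NCBI gene 542564) was the cesa gene with the highest mean ratio. Its replicates 1 to 6 read 0.45, 0.34, 0.26, -0.16, -0.09 and 0.12, averaged over 2 probes. The 3 highest values are those with rgd2-R in Cy3, and none of the values with rgd2-R in Cy5 reaches them. The mean was 0.15 ± 0.24 (SD, n = 6), a 1.11-fold ratio with a standard error of 0.06 on the log2 scale and an adjusted p of 0.303 in limma. Within dye orientations the mean was 0.35 ± 0.10 (SD, n = 3) with rgd2-R in Cy3 and -0.05 ± 0.15 (SD, n = 3) with rgd2-R in Cy5, so the ratio did not keep its sign when the dyes were swapped. The fit balances the orientations and gave cesa2 a dye term of -0.20, larger in size than its genotype term.

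The pair of cesa2 probes differed widely in brightness. One lay at 101 times local background in Cy3 and 171 times in Cy5, with a highest signal of 58539. The other lay at 2.82 and 2.58 times. Both gave a mean ratio of 0.15, with standard errors of 0.05 for the bright probe and 0.10 for the dim one. The bright probe was the single cesa probe on SAM1 with an unadjusted p under 0.05 (1 of 19, beside 14.8% of all SAM1 probes).

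cesa3 (NCBI gene 542489) has 1 probe, at 2.73 times background in Cy3 and 3.74 times in Cy5. Its replicates read -0.17, 0.11, 0.06, -0.19, -0.22 and -0.58, which places 4 of 6 below 0. The mean was -0.17 with a standard error of 0.07, a ratio of 0.892-fold, and an adjusted p of 0.362 in limma. With rgd2-R in Cy3 the mean was -0.00 ± 0.15 (SD, n = 3), and with rgd2-R in Cy5 it was -0.33 ± 0.21 (SD, n = 3). As for cesa2, all Cy3 values exceeded all Cy5 values. This separation was found in 2 of 7 cesa genes on SAM1, beside 9.46% of all genes and unnamed spots there, and in 0 of 7 on SAM3, beside 6.6%. The opposite separation was found in 0 of 7 on both designs, beside 7.09% on SAM1 and 5% on SAM3.

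cesa5 (NCBI gene 541803) was measured by 1 probe on SAM1 and 3 on SAM3. On SAM1 its replicates read -0.25, -0.56, 0.03, 0.09, 0.13 and -0.41, so 3 were above and 3 below 0. The mean was -0.16, with a standard error of 0.10 and an adjusted p of 0.538 in limma. On SAM3 the replicates read -0.18, -0.23, -0.16, -0.06, -0.39 and -0.60. All 6 were below 0. The mean was -0.27 with a standard error of 0.08, a ratio of 0.829-fold, and the adjusted p was 0.591 in limma. With replicate 3 as labelled, both dye orientations were below 0. They averaged -0.19 ± 0.04 (SD, n = 3) with rgd2-R in Cy3 and -0.35 ± 0.27 (SD, n = 3) with rgd2-R in Cy5. The Cy3 group includes replicate 3, whose value was -0.16 as labelled and 0.38 with its low and mid readings turned. The agreement of the orientations and the small SD in Cy3 therefore hold for the labelled direction.

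The cesa5 value on SAM3 depends in part on replicate 3, whose low, mid and high readings were -0.40, -0.41 and 0.33. Without that replicate the mean was -0.28. With its low and mid readings turned the mean was -0.18 and the unadjusted limma p rose from 0.00955 to 0.159. With its high reading turned instead, the mean was -0.31, and with replicate 2 turned along with low and mid it was -0.10. When all 18 readings entered the fit with the replicate number as a random block, the mean stayed at -0.27 and the adjusted p was 0.0301, the one setting in which a cesa gene passed the threshold. Over all 21 alternatives the adjusted p of cesa5 on SAM3 ran from 0.0301 to 0.993. The same fit called 255 probes of SAM3 where the mean of readings called 0, and the correlation of readings within a replicate was estimated at 0.140, with the opposed readings of replicate 3 included. Repeat readings of one hybridisation are not biological replicates, so these calls do not rest on biological replicates alone.

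The 3 cesa5 probes on SAM3 gave means of -0.36, -0.18 and -0.27, with standard errors of 0.11, 0.08 and 0.06. The third was below 0 in all 6 replicates, the first in 5 and the second in 5. The first and the third were the 2 of 10 cesa probes on SAM3 with an unadjusted p under 0.05, beside 6.58% of all SAM3 probes. With the low and mid readings of replicate 3 turned, this held for 0 of 10, beside 1185 of 16000 SAM3 probes. The 3 means were then -0.28, -0.11 and -0.15. All lay above background, between 4.46 and 8.32 times in Cy3 and between 6.39 and 17.6 times in Cy5. As normalised channel levels, the log2 intensity of each dye after scaling between arrays, cesa5 on SAM3 was 9.61 ± 0.18 in non-mutant and 9.34 ± 0.12 in rgd2-R (SD, n = 6). Non-mutant levels ran from 9.40 to 9.83 and rgd2-R levels from 9.16 to 9.44, so the groups overlapped at their edges although each within-replicate ratio was below 0 with replicate 3 as labelled. On SAM1 the cesa5 levels were 10.35 ± 0.27 and 10.19 ± 0.19, and the corresponding ranges overlapped from 10.08 to 10.49.

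**Figure D2:**
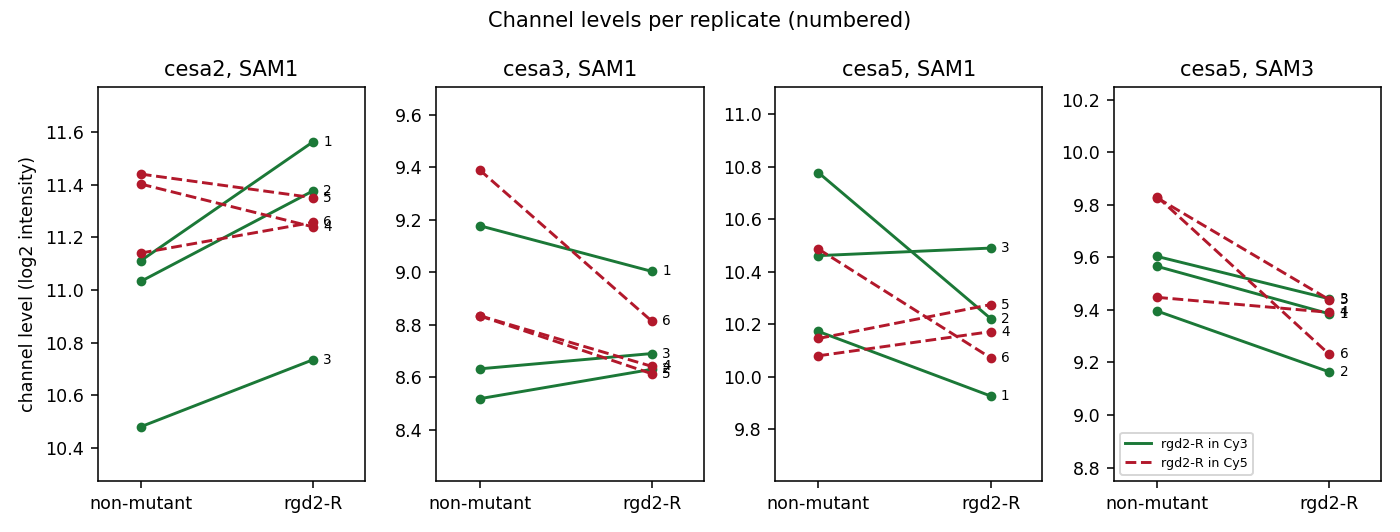
Normalised channel level (log2 intensity, y axis) of cesa2, cesa3 and cesa5 in non-mutant and rgd2-R, with one line per replicate, numbered. Solid lines have rgd2-R in Cy3 and dashed lines in Cy5, and each panel spans the same number of log2 units. For cesa5 on SAM3 all 6 lines fall from non-mutant to rgd2-R with replicate 3 as labelled, while in the other panels lines run both ways.

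cesa1 was measured by 1 probe on each array design. On SAM3 its replicates read -0.55, 0.13, -0.10, -0.08, -0.03 and -0.39, with 5 of 6 below 0. The mean there was -0.17 with a standard error of 0.10 and an adjusted p of 0.864 in limma. Both dye orientations averaged -0.17 with replicate 3 as labelled. Replicate 3 again split, at 0.13 and 0.06 in the low and mid readings and -0.48 in the high one. The mean was -0.19 without it, -0.19 with low and mid turned, and -0.12 with high turned. On SAM1 the cesa1 replicates read 0.28, -0.09, 0.06, 0.03, -0.21 and -0.52, with 3 on each side of 0, a mean of -0.08 and a standard error of 0.08. Without replicate 6 that mean was -0.0031.

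cesa6 was measured by 2 probes on each design. Its SAM1 mean was -0.09 with a standard error of 0.09, its replicates ran from -0.48 to 0.16, and without replicate 2 the mean was -0.02. On SAM3 the replicates read 0.06, 0.22, 0.08, 0.36, -0.54 and -0.44. Replicates 5 and 6 stand below the other 4, although replicate 4 shares their dye orientation, and the mean was -0.04 with a standard error of 0.12. The 2 SAM3 probes averaged 0.04 and -0.13. The SAM3 mean was -0.03 without replicate 3, -0.11 with its low and mid readings turned and -0.01 with its high reading turned.

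cesa7, which is on SAM3 only, had 1 probe with replicates of 0.31, -0.12, -0.23, 0.02, -0.15 and -0.37. Its mean was -0.09 with a standard error of 0.09, and it was -0.04 without replicate 3, 0.03 with the low and mid readings of that replicate turned and -0.13 with the high reading turned. cesa4, also on SAM3 only, lay at 1.21 times background in Cy3 and 1.55 times in Cy5, and its mean was 0.03 ± 0.07 (SD, n = 6). cesa9 averaged -0.05 over 3 probes on SAM1 and 0.03 with 1 probe on SAM3, with standard errors of 0.06 on both designs. The SAM1 mean was -0.0015 without replicate 6. The SAM3 mean was -0.02 without replicate 3, -0.02 with low and mid turned and 0.0042 with high turned, and that of cesa4 was 0.03, 0.05 and -0.00046.

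cesa8 had the most probes, 9 on SAM1 and 1 on SAM3. Its SAM1 replicates ran from -0.18 to 0.10 with a mean of -0.03 and a standard error of 0.06, and on SAM3 the mean was 0.05 with a standard error of 0.08. The SAM3 mean was 0.07 without replicate 3, -0.02 with its low and mid readings turned and 0.11 with the high reading turned. In the authors' value table it was 0.83, and after plain background subtraction 0.71, at a probe near background. The 9 SAM1 probes averaged between -0.39 and 0.06. The lowest of them, chosen here after its values were seen, read -0.07, 0.03, -1.50, -0.41, 0.14 and -0.55. Its value in replicate 3 comes from the low reading, at -4.35, where the mid and high readings of the same replicate were -0.25 and 0.11. This probe was the brightest cesa8 probe on SAM1, at 28.0 times background in Cy3 and 36.9 times in Cy5. Another bright cesa8 probe, at 14.5 and 20.3 times, averaged 0.04.

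Dim probes gave ratios close to 0. On SAM1, 10 of 19 cesa probes exceeded 2 times local background in both dyes, and their means ran from -0.39 to 0.15 with a median SD over replicates of 0.28. The other 9 ran from -0.04 to 0.05 with a median SD of 0.12. Under plain background subtraction, which adds no offset, these 9 ran from -1.01 to 0.82. On SAM3, 7 of 10 exceeded 2 times background and ran from -0.36 to 0.04 with a median SD of 0.25. The other 3 ran from 0.03 to 0.05 with a median SD of 0.13. With replicate 3 as labelled, 6 of the 7 were below 0, and 3 of these are cesa5 probes. On SAM1, 6 of the 10 brighter probes and 7 of the 9 dim ones were below 0. Over genes and unnamed spots of any brightness, the share below 0 was 51.5% on SAM3 and 48.6% on SAM1. By gene, bright probes covered all of cesa1, cesa2, cesa3 and cesa5 on SAM1, but only 3 of 9 for cesa8, 1 of 3 for cesa9 and 1 of 2 for cesa6. On SAM3 no probe of cesa4, cesa8 or cesa9 was bright in both dyes. The ratio of a gene averaged mostly over dim probes is therefore limited by signal over background.

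**Figure D3:**
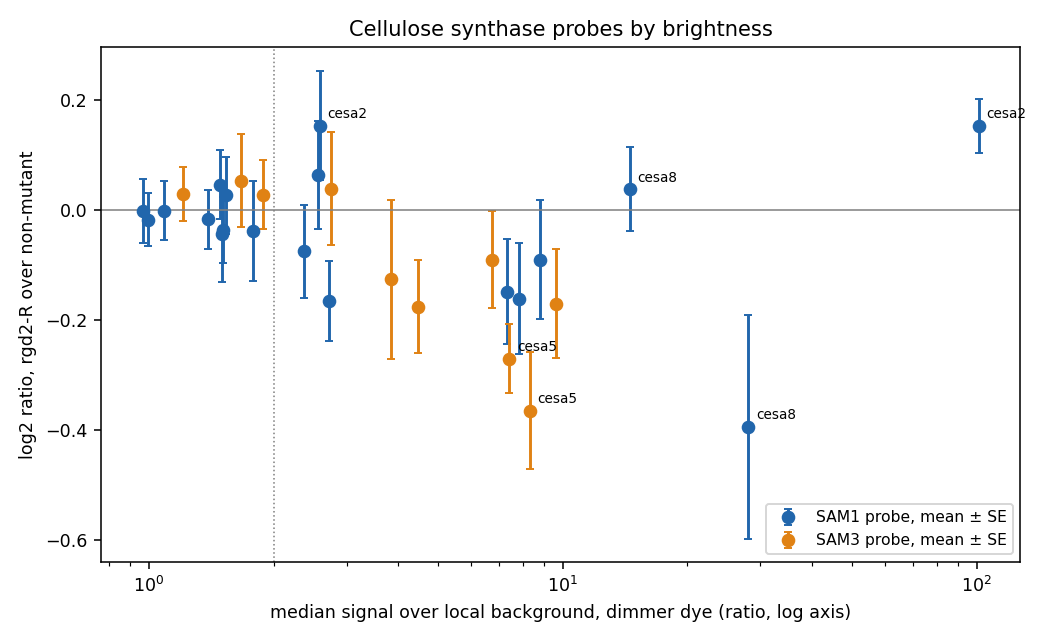
Mean log2 ratio of each cesa probe with its standard error (y axis) against the median signal over local background in its dimmer dye (x axis, log scale), coloured by array design. Probes under 2 times background lie between -0.04 and 0.05, and the brighter probes spread from -0.39 to 0.15.

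The same clone was spotted on both designs for 3 genes. The cesa6 clone averaged -0.04 on SAM1 and 0.04 on SAM3, the cesa8 clone 0.03 and 0.05, and the cesa9 clone -0.02 and 0.03. All of these lie within 1 standard error of 0 on each array, and 1 of the 6 spots, cesa6 on SAM3, exceeded 2 times background in both dyes.

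The cesa genes were then compared with each other, over 21 pairs per array design, by an exact two-sided sign-flip test on the 6 within-replicate differences, whose smallest possible p is 0.03125. On SAM1 1 pair reached it. cesa2 exceeded cesa3 by 0.32 ± 0.27 (SD, n = 6) on the log2 scale, in 6 of 6 replicates, with an exact p of 0.03125 and an adjusted p of 0.574. With the low reading alone it was 0.15, higher in 3 of 6 (exact p 0.28125), and with median centring 0.28, higher in 4 of 6 (exact p 0.15625). On SAM3 3 pairs did, all with cesa5 as the lower gene. cesa4 exceeded cesa5 by 0.30 ± 0.17 (SD, n = 6) and the difference of cesa5 minus cesa8 was -0.32 ± 0.12 and of cesa5 minus cesa9 -0.30 ± 0.25, each in 6 of 6 replicates with an exact p of 0.03125 and an adjusted p of 0.219. With the low and mid readings of replicate 3 turned, an alternative chosen after seeing the data, these became 0.23, -0.16 and -0.16 with exact p-values of 0.125, 0.4375 and 0.375. In that setting cesa5 minus cesa7 was -0.21, lower in 6 of 6 replicates with an exact p of 0.03125 and an adjusted p of 0.656. Without replicate 3 the first 3 pairs were at 0.32, -0.35 and -0.28. No pair passed after adjustment, which this test could reach only with at least 14 of 21 pairs at the smallest p. cesa4, cesa8 and cesa9 are the genes on SAM3 with no bright probe.

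Across the 6 replicates the cesa genes did not move as one group. Pearson's r between 2 cesa genes ran from -0.90 to 0.91 on SAM1 with a median of 0.21 over 21 pairs, and from -0.68 to 0.93 on SAM3 with a median of 0.25. These points share arrays and dyes, and they are given as a description. Among 576 other named genes on SAM1, the replicate pattern most like that of cesa2 was shown by eif3 (r = 0.964), rop6 (0.964) and apx (0.945), that of cesa3 by ada2 (0.986), ra3 (0.916) and DrAp1 (0.914), and that of cesa5 by gln1 (0.989), opr5 (0.988) and LOC732779 (0.976). opr5 and gln1 were also the genes most like cesa6 on SAM1 (0.953 and 0.948). Among 591 on SAM3, those most like cesa5 were m27 (0.982), fsd1 (0.960) and LOC542628 (0.915). With the low and mid readings of replicate 3 turned they were arpp2b (0.990), TMT (0.984) and LOC542197 (0.971), so the SAM3 neighbours of cesa5 depend on that replicate. In that setting the closest gene also changed for cesa1, cesa4, cesa6, cesa7 and cesa9, while for cesa8 it stayed aldh2 (0.983). For the remaining genes, the closest were an1 (0.980) for cesa1, PP1 (0.955) for cesa8 and mgs2 (0.964) for cesa9 on SAM1, and dehydrin3 (0.952) for cesa1, gst10 (0.943) for cesa4, sig2A (0.949) for cesa6, LOC542197 (0.955) for cesa7, aldh2 (0.976) for cesa8 and isp1 (0.951) for cesa9 on SAM3. These are the highest of 576 and 591 values of r over 6 points, and they are no test.

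Other genes of wall building and of the microtubules that guide cellulose synthase complexes were read beside the cesa genes. On SAM1, 0 of 8 cell wall genes and 0 of 10 tubulin genes passed the threshold, with 2 above and 6 below 0, and 3 above and 7 below 0. Their medians were -0.04 and -0.08, beside 0.00 over everything on that array. The cell wall gene with the smallest p was prp2, a proline-rich protein gene, at 0.37 with a standard error of 0.13 and an adjusted p of 0.270 in limma. The next was PG14, at -0.09 with a standard error of 0.05. Sucrose synthases, which supply UDP-glucose, read -0.09 (sus1) and -0.12 (sh1), with standard errors of 0.09 and 0.11. Of the tubulins, tub7 was at -0.15 with a standard error of 0.06, tub5 at 0.17 with 0.07, tub6 at -0.13 with 0.07 and tua4 at -0.11 with 0.08. On SAM3, 0 of 4 cell wall genes (2 above and 2 below 0) and 0 of 7 tubulin genes (2 above and 5 below 0) passed, and sus1 read -0.12 with a standard error of 0.10, HRGP, a hydroxyproline-rich glycoprotein gene, -0.12 with 0.11 and tua6 0.15 with 0.13. The direction of the SAM3 tubulins follows that of replicate 3, with 0 of 7 above 0 when its low and mid readings were turned and 7 of 7 when its high reading was turned. In those settings 0 of 4 and 1 of 4 cell wall genes were above 0, and tua6 read -0.15 and 0.27.

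The processing alternatives reuse the same replicates, so counts of signs over them are no independent support. Leaving out the dye term and using the replicate block did not move the means. Across the alternatives, cesa2 stayed above 0 in 18 of 18, between 0.06 and 0.26. cesa3 and cesa5 on SAM1 stayed below 0 in 18 of 18, between -0.25 and -0.09 and between -0.25 and -0.07. cesa1 and cesa5 on SAM3 stayed below 0 in 21 of 21, between -0.25 and -0.08 and between -0.36 and -0.10. Of these 5 gene values, cesa5 on SAM3 passed the threshold in 1 alternative, the fit of all readings with the replicate block, and the other 4 passed in none. On SAM1, cesa6 and cesa9 also stayed below 0 in 18 of 18, with highest values of -0.02 and -0.0015.

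**Figure D4:**
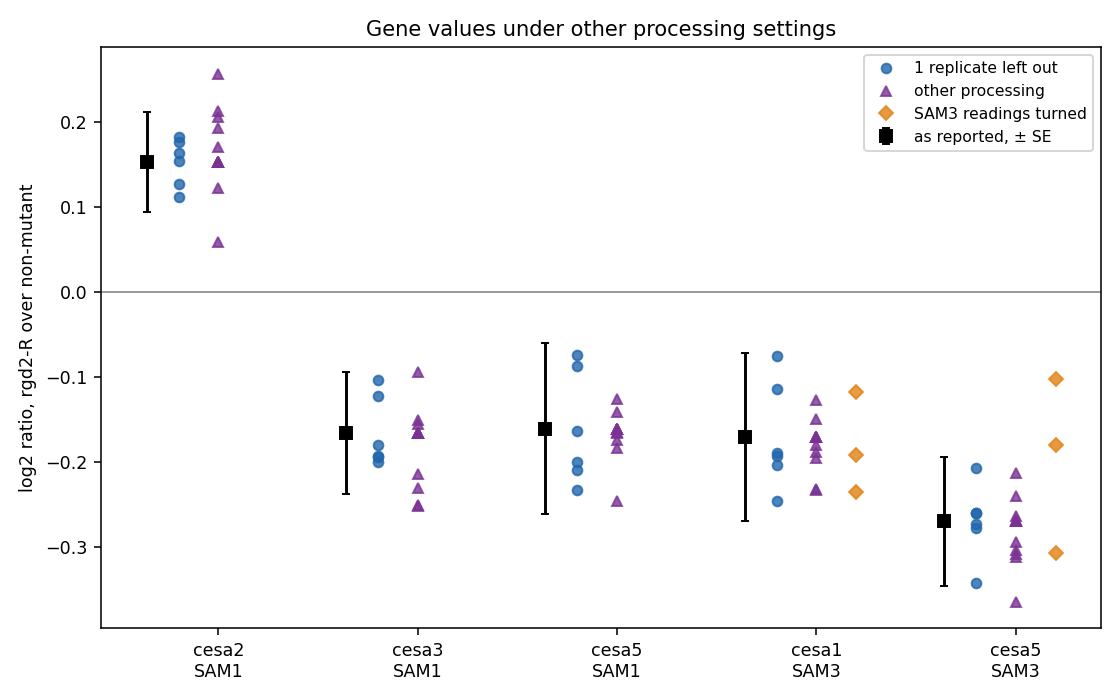
Log2 ratio of rgd2-R over non-mutant (y axis) of 5 gene values under the reported processing (black squares with the standard error), with 1 replicate left out (blue circles), under other processing (purple triangles) and with SAM3 readings turned (orange diamonds). All values of a gene lie on one side of 0, the closest being cesa2 at 0.06 and, for cesa5 on SAM3, -0.10 when readings of replicates 2 and 3 are turned.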

How the data were processed

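Per the file headers, the intensity columns hold the uncorrected brightness of each spot and of its surroundings in both dyes. A value table deposited by the authors holds processed natural log ratios that run as non-mutant over rgd2-R, whose correction method is not stated in the labels or headers and whose column medians lay between -0.0800 and 0.0445. Signals were corrected with normexp (offset 50) and normalised by loess within arrays (limma 3.58.1, R 4.3.3). Averaging the 3 readings of each replicate left 6 values per probe. A model with genotype and dye terms (4 residual degrees of freedom) was fitted to each array design with lmFit and eBayes, two-sided, and p-values were adjusted by Benjamini-Hochberg over the whole design, with a threshold of 0.05. Probes of one gene were averaged. Channel levels are log2 intensities after Aquantile scaling. The fit was tested on simulated data. In the fits of replicate means, p-values measure the spread between biological replicates as labelled, and the number of arrays limits the precision. In the fit of all readings with the replicate block, repeat readings of one hybridisation enter as well. Its p-values and counts therefore do not rest on biological replicates alone.

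Gene names came from the platform annotation. The cesa genes were all named. From the other lists up to 4 genes with the smallest p were named, and for likeness up to 3 genes with the highest r. Members and lists were chosen with earlier results of these data known. Alternatives covered background correction, normalisation, dye term, readings, replicate block, dim probes, probe summary, the authors' ratios, left-out replicates and turned SAM3 readings. Turned or left-out SAM3 values of pair differences, sign counts, other gene lists and likeness were chosen after seeing the data. No sequences or coordinates were used.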

Additional observations from a re-analysis of the deposited data

Results flagged for a closer look

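One of the 14 gene values tested for a replicate far from the others stood out. For cesa4 on SAM3, replicate 4 read 0.158, while the other 5 replicates lay between -0.02 and 0.02. The gap made up 0.800 of the whole range, above Dixon's critical value for 6 values. Chance alone gives such a gap in about 1 of 20 groups. The cesa4 probe lay under 2 times local background in both dyes, and its 3 readings in that replicate were 0.40, -0.08 and 0.16. Without replicate 4 the mean was 0.003.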

How the results depend on the processing

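On SAM1, cesa8 changed sign to 0.032 without background correction and to 0.019 in the authors' value table, and ran from -0.058 to 0.011 when replicates were left out, while cesa1 became 0.26 under plain subtraction. On SAM3, the uncorrected signals gave cesa6 0.059 and cesa9 -0.086. Plain subtraction gave cesa4 -0.00097, cesa6 0.34 and cesa9 -0.14, and the authors' table gave -0.0060, 0.36 and -0.15. The largest move was that of cesa8 on SAM3, from 0.05 to 0.71 under plain subtraction and 0.83 in the authors' table. Median centring gave cesa9 -0.016. The low reading alone gave cesa6 0.022, the mid reading cesa4 -0.037 and cesa9 -0.021, and the high reading cesa7 0.0092 and cesa8 -0.060. Turning the low and mid readings of replicate 3 gave cesa7 0.028, cesa8 -0.016 and cesa9 -0.016, turning replicate 2 as well gave cesa7 0.070 and cesa8 -0.056, and turning the high reading gave cesa4 -0.00046. Leaving out replicates gave ranges of -0.18 to 0.038 for cesa6, -0.039 to 0.11 for cesa8 and -0.019 to 0.055 for cesa9 on SAM3. The cause of these changes was not tested.

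The count of all SAM1 probes past the threshold rose from 0 to 195 without background correction, 11 under median centring, 36 with the mid reading, 42 without the dimmest 25% of probes and 1 in the authors' table, and was 0 to 2 with a replicate left out, the 2 being without replicate 2. With all readings and the replicate block it was 1819 on SAM1 and 255 on SAM3, where 1 cesa probe, of cesa5, passed and cesa5 stood at -0.27. Turning low, mid and replicate 2 gave 2 probes on SAM3. No cesa probe passed in any other alternative. The probe of cesa4 was among the dimmest 25%, so that filter gave it no value. Signal near background limits cesa4, cesa8 and cesa9. SAM3 is limited by its 6 replicates and by the unsettled direction of replicate 3. No block pairs the genotypes beyond the array itself, since both share each hybridisation.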
